A study of Mus musculus with 41 samples.

Results

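The 7 genes described here are the trophoblast transcription factors Tfap2c, Tfap2a, Gata3, Cdx2, Elf5 and Hand1 and the placental gene Plac1. They were chosen by name, with earlier results of these data known. All 7 were found among the 55487 genes of the deposited expression table. The study followed E14 mouse embryonic stem cells on their way from the naive to the formative state. A line with the genotype label Esrrb WT (called WT here) was compared with KO2 and KO3, 2 lines depleted of Esrrb by genetic means. The product of Esrrb is an orphan nuclear receptor that belongs to the network of naive pluripotency.

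Naive cells of each line were kept on gelatin in N2B27 with 2iL, which is the GSK3 inhibitor CHIR99021, the MEK inhibitor PD0325901 and LIF. For the formative state, cells of each line were plated on fibronectin in N2B27 for 1 day and then held in AloXR for 1, 3 or 5 days. AloXR is N2B27 with activin A at 3 ng/ml, the tankyrase inhibitor XAV at 2 µM and BMS439 at 1.0 µM. The line and the time make 12 groups. They held 3 libraries each in 2iL and 4 each in AloXR, except KO3 at days 3 and 5 with 2 each, so that WT had 15, KO2 15 and KO3 11 of the 41 libraries. The WT control is 1 line and each depleted line is 1 line, so the loss of Esrrb and other differences between the lines cannot be told apart. The labels do not give the deleted stretch of Esrrb, and do not tell cultures from repeat libraries of 1 culture, and all p-values here measure only the spread between these libraries.

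Trophoblast is the outer lineage of the blastocyst and forms the placenta. Embryonic stem cells come from the inner cell mass and normally contribute little to it. Cdx2 and Elf5 support the self-renewal of trophoblast stem cells, Tfap2c and Gata3 act beside them in the trophectoderm, and Hand1 drives the formation of trophoblast giant cells. Tfap2c and Tfap2a encode AP-2 factors, and Tfap2c also acts in the germ line and in naive stem cells. Tfap2a is better known from surface ectoderm and neural crest. Plac1 is an X-linked gene needed for normal placental growth. Esrrb itself is needed for trophoblast stem cells as well as for naive pluripotency.

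In the AloXR cultures, the depleted lines held more Tfap2c, Gata3, Hand1 and Plac1 RNA than WT. All 4 were called higher at days 1 and 3, and 3 of them (Tfap2c, Hand1 and Plac1) at day 5. In KO2 alone, Hand1 was the only one called at day 5, whereas all 4 were called in the 2 KO3 libraries. On the log2(CPM + 1) scale the estimated difference of each of the 4 was largest at day 3. The edgeR test on reads gave the same order of days 3 and 5 for 3 of them and put Hand1 at 4.80 at day 3 and 5.04 at day 5. It also put Plac1 higher in 2iL, where WT held no read, than at day 3 (5.23 against 5.04). Cdx2 was near the limit of detection throughout and lay higher in the depleted lines in 2iL. Elf5 was practically undetected, and Tfap2a was called against WT in 2iL alone, where it was lower in KO2. Levels were low: apart from Tfap2c, no group mean of these genes exceeded 14.0 CPM, the counts of a gene per 1000000 assigned reads, and most Cdx2, Hand1 and Plac1 values in WT were 0.

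Promoter sequences (RefSeq, GRCm38.p6, 250 bases before to 50 after a start site) were held for 5 of the 7 genes. They are printed for Gata3, Cdx2 and Plac1, the genes with an entry that were called higher in the depleted lines, because the motif counts below are read from these bases. Capitals mark matches, on either strand, to 4 motifs. These were AAGGTCA for oestrogen-related receptors such as Esrrb, GGAATG for TEAD factors, AGATAA for the GATA family and GCCNNNGGC for AP-2. The AP-2 pattern reads the same on both strands, and no matches in the printed sequences overlap. Plac1 has a start site upstream and one downstream, and reads from the 3′ end cannot tell which was used.
The windows lie on the minus strand at chr2:9878551-9878850 (Gata3), chr5:147307200-147307499 (Cdx2), chrX:53240061-53240360 (upstream Plac1) and chrX:53114356-53114655 (downstream Plac1).
Gata3: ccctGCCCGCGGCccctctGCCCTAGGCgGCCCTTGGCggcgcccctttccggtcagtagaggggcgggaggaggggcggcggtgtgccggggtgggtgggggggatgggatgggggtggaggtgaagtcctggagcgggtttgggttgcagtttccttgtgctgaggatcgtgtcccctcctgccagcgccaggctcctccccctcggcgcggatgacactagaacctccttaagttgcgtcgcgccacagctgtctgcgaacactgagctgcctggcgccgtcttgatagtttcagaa
Cdx2: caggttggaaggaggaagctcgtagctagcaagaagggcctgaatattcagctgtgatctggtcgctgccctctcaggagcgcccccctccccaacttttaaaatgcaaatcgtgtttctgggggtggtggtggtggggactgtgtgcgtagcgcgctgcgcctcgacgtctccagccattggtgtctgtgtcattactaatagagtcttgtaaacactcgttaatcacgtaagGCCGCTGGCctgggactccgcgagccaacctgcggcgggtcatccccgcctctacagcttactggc
Plac1 upstream: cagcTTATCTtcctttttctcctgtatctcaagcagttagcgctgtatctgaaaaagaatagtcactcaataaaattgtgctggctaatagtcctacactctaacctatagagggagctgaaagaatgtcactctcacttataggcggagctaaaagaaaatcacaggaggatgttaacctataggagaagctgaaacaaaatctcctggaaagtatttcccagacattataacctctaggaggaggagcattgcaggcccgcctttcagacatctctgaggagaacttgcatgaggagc
Plac1 downstream: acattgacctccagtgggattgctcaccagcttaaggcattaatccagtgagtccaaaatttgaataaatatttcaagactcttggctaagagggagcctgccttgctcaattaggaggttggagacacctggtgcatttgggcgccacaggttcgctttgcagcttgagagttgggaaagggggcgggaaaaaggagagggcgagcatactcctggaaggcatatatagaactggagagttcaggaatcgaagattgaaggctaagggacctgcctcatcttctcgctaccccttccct

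The Gata3 promoter held 3 AP-2 matches, beginning at positions -246, -231 and -221 from the start site, and Cdx2 held 1, beginning at -16. Across all 32851 promoters in the table, 16.6% held this pattern. The upstream Plac1 promoter held 1 GATA match, at -246 and on the opposite strand, a pattern present in 11.2% of promoters, and the downstream one held no match to any of the 4. The half-site AAGGTCA, in 4.72% of promoters, was absent from the 8 windows of Gata3, Cdx2, Plac1, Elf5 and Tfap2a, and GGAATG (14.7%) occurred once, in one of the 2 Elf5 windows. The windows differed in CpG dinucleotides. Gata3 held 22 and Cdx2 18, more than 76.9% and 70.3% of promoters, whereas the upstream Plac1 window held 3 and the downstream one 6, where the median promoter has 7. A match describes letters in a window and nothing about binding.

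The libraries held 3424064 to 5736053 reads assigned to genes, so that 3 reads, the most that a count of 0 allows, stand for 0.523 to 0.876 CPM. These limits, and all intervals on reads below, cover counting error only. In 2iL the targeted gene was lower in the depleted lines, and the range of Esrrb was 309 to 434 CPM for WT, 52.0 to 56.7 CPM for KO2 and 103 to 166 CPM for KO3. Transcripts remained in both depleted lines, and at day 1 KO3 (26.1 to 41.4 CPM) lay above WT (12.2 to 17.8 CPM) while KO2 was lower (1.64 to 5.52 CPM). At day 3 Esrrb was called higher in the depleted lines combined (0.74 ± 0.25, limma adjusted p = 0.0265). This came from KO3 (4.87 to 6.17 CPM against 1.19 to 1.83 CPM in WT), and KO2 was not called (0.15 ± 0.27). The words depleted, KO2 and KO3 are therefore used here for what the labels say and not for the measured level of Esrrb. Since the deleted stretch is not given, reads near the 3′ end do not check the deletion itself. The 2iL libraries numbered 3 (libraries are numbered in accession order) stood apart in all 3 lines, with Dnmt3b at 107 to 121 CPM against 39.7 to 59.9 CPM in the others, and each gene's difference from WT in 2iL is given with and without them. Changes below are differences of log2(CPM + 1), a scale that understates those of genes near 0, followed by their standard error in limma. To be called, a gene needed a limma adjusted p below 0.05, a difference of 1.5-fold or more and, for both depleted lines together, the same sign in KO2 and KO3.

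Of the 7 genes, 6 passed the filter of 1 CPM in at least 3 libraries and were tested. Cdx2, Hand1 and Plac1 passed it through the depleted lines alone (8, 11 and 21 libraries at 1 CPM, none of them WT), so that a higher level there was a condition of their being tested. In 2iL, 3 were called higher (Gata3, Cdx2 and Plac1) and 1 lower (Tfap2a), where 8.11% of the 16967 genes tested were called higher and 7.6% lower. That count fell from 4 to 2 without the libraries numbered 3, without WT replicate 2 or 3 alone, and without KO3 replicate 3 alone. At day 1, 4 were called higher and none lower, against 6.31% and 5.5% of all genes. At day 3 the count was 5 higher and none lower, against 10.8% and 6.49%, and at day 5 it was 3 higher and none lower, against 8.89% and 11.7%. In KO2 alone against WT the higher calls were 2, 4, 4 and 1 over the 4 times (background 9.9%, 6.75%, 7.31% and 6.27%), and Tfap2a was lower in 2iL (background 7.94%). In KO3 alone against WT the higher calls were 2, 4, 5 and 4 (background 6.12%, 8.5%, 12.7% and 12.8%). The WT libraries are shared by the comparisons with KO2 and with KO3.

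**Figure D1:**
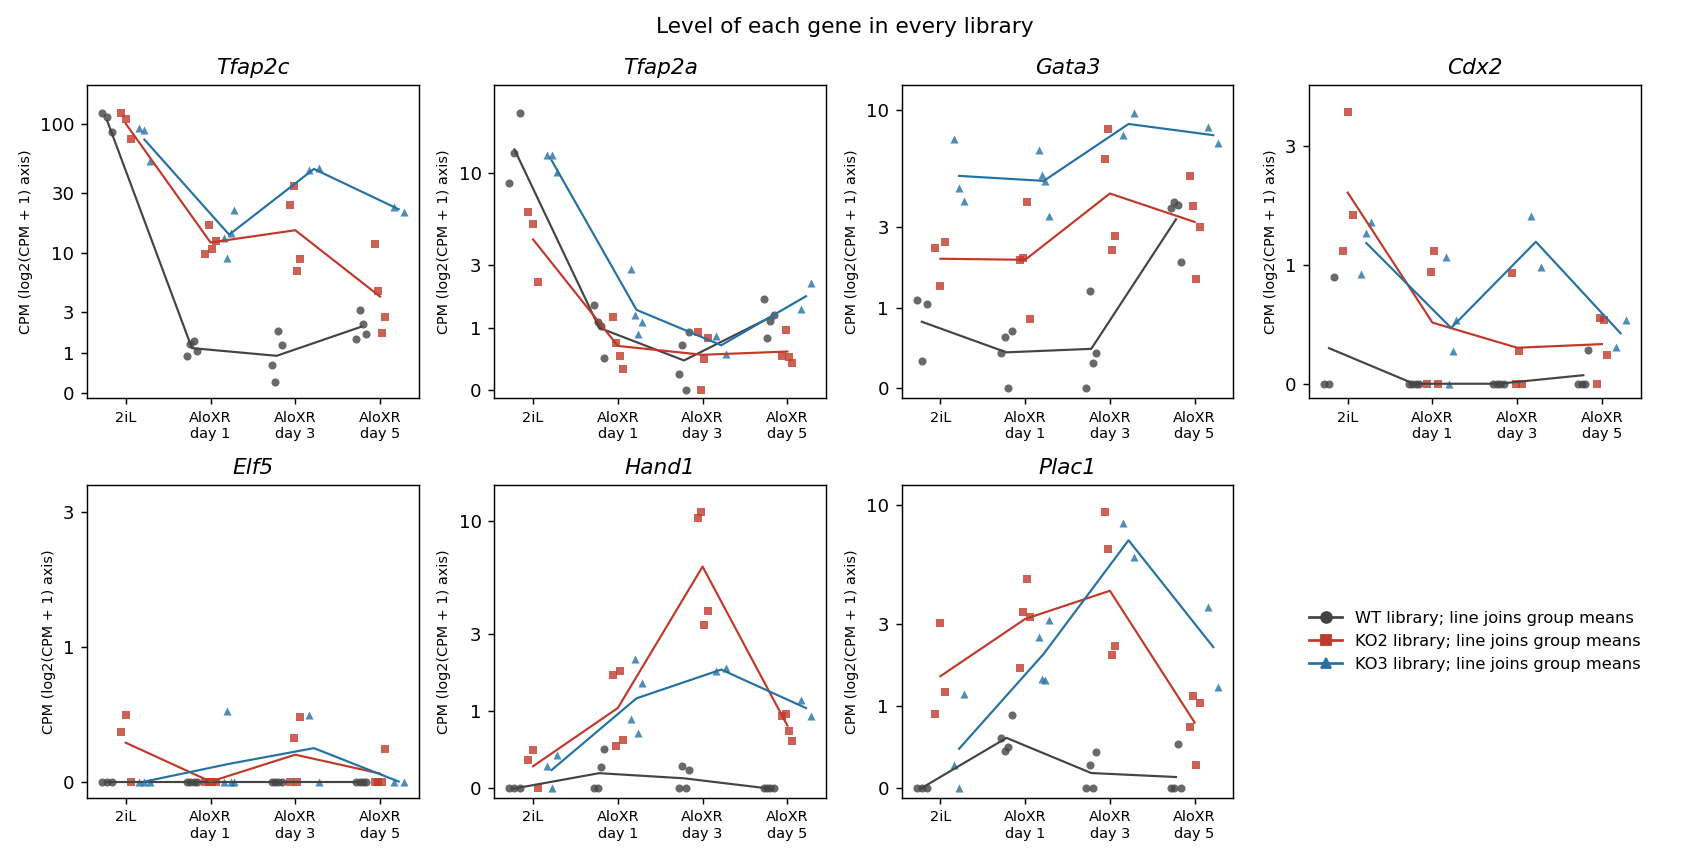
Level of the 7 genes in each of the 41 libraries, in CPM on a log2(CPM + 1) axis, by time (2iL, then AloXR days 1, 3 and 5); points are libraries and lines join group means on that scale for WT, KO2 and KO3. Tfap2c starts at 52.7 to 120 CPM in all lines and falls to 0.88 to 1.44 CPM in WT at day 1 while the depleted lines stay at 9.19 CPM or above; Elf5 is at or near 0 throughout.

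Tfap2c (chr2:172549593-172558622, plus strand) was well expressed in naive cells of all lines and did not separate them there. Its 2iL levels were 120, 113 and 86.0 CPM in WT, 120, 108 and 77.2 CPM in KO2, and 92.3, 90.0 and 52.7 CPM in KO3. The 3 lines overlapped, and the depleted lines differed from WT by -0.27 ± 0.38 (limma adjusted p = 0.681, 95% interval -1.04 to 0.50), or by -0.19 without the libraries numbered 3. On leaving 2iL the gene fell in every line, but not as far in the depleted ones. At day 1 it stood at 0.88, 1.31, 1.44 and 1.07 CPM in WT. KO2 kept 9.79, 16.8, 10.7 and 12.5 CPM and KO3 13.3, 9.19, 14.6 and 21.9 CPM. Every depleted library lay above every WT library, a separation that 4.68% of all genes showed at that time in this direction. Between 2iL and day 1 WT changed by -5.62 ± 0.41, KO2 by -2.93 ± 0.41 and KO3 by -2.35 ± 0.41 (limma adjusted p = 1.77e-13, 5.04e-07 and 1.63e-05). Of all genes, 18.7%, 17.6% and 16.6% fell in these steps.

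The resulting difference from WT at day 1 was 2.71 ± 0.33 (limma adjusted p = 1.2e-07), and it was larger than in 2iL by 2.98 ± 0.50 (adjusted p = 7.1e-05 in limma), or by 2.90 ± 0.58 without the 2iL libraries numbered 3. This was the single gene of the 6 whose difference changed between these times, where 4.8% of all genes were called in this direction. Summed over libraries, the reads of Tfap2c at day 1 gave a ratio to WT of 10.7 in KO2 (95% exact interval 7.02 to 17.2) and of 12.6 in KO3 (8.29 to 20).

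At day 3 the WT libraries held 0.61, 0.22, 1.90 and 1.27 CPM of Tfap2c. Those of KO2 held 24.2, 33.8, 7.09 and 8.92 CPM and those of KO3 44.8 and 46.2 CPM. No depleted library overlapped WT, and in this direction 8.42% of all genes separated in that way. The difference was 3.86 ± 0.35 (limma adjusted p = 2.61e-10), and its change from day 1 (1.15 ± 0.48, limma adjusted p = 0.199) was not called. At day 3 KO3 was higher than KO2 by 1.51 ± 0.46 (limma adjusted p = 0.031), where 5.58% of all genes were called. That call was lost without either KO3 library and without KO2 library 3 or 4. From day 1 Tfap2c had risen in KO3 (1.62 ± 0.46, limma adjusted p = 0.0223, lost without day 1 replicate 2 or either day 3 library) and was not called in KO2 (0.30 ± 0.38). By day 5 the levels were 1.53, 3.17, 2.27 and 1.75 CPM in WT, 11.8, 4.73, 1.78 and 2.66 CPM in KO2, and 23.4 and 21.3 CPM in KO3. KO2 now overlapped WT (0.75 ± 0.38, not called) while KO3 did not (2.90 ± 0.46, limma adjusted p = 1.2e-05), and KO3 exceeded KO2 by 2.16 ± 0.46 (limma adjusted p = 0.0012, 9.02% of all genes). With 2 KO3 libraries, 27.3% of all genes lay above WT without overlap at day 5, against 10.8% in KO2. From day 3 Tfap2c fell in KO2 by 1.64 ± 0.38 (limma adjusted p = 0.00579, not called without libraries 1 and 2 of day 3). The call for both lines at day 5, 1.82 ± 0.35 (limma adjusted p = 1.48e-04), therefore came with unlike sizes in the 2 lines. In bulk RNA, more cells with a transcript and more transcript per cell cannot be told apart.

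Tfap2a (chr13:40715302-40738376, minus strand), the AP-2 gene of surface ectoderm and neural crest, followed another course. In 2iL it stood at 8.87, 12.8 and 20.4 CPM in WT, 6.13, 5.28 and 2.30 CPM in KO2, and 12.5, 12.4 and 10.1 CPM in KO3. The KO2 libraries lay below WT, as did those of 11.6% of all genes, and the KO3 libraries lay inside the WT range. The call for both lines, -0.80 ± 0.28 (limma adjusted p = 0.030), came from KO2 (-1.43 ± 0.32, adjusted p = 7.04e-04) rather than KO3 (-0.18 ± 0.32, not called). KO3 exceeded KO2 by 1.25 ± 0.32 (limma adjusted p = 0.00723, where 2.5% of all genes were called), a call lost without KO2 replicate 3. Without the 2iL libraries numbered 3 the difference of both lines from WT was -0.30 (adjusted p = 0.561 in limma), and neither KO2 alone (-0.80 ± 0.36) nor KO3 against KO2 (1.01 ± 0.36) was called then. The call for both lines was also lost without WT replicate 2 or 3, KO2 replicate 3 or KO3 replicate 3.

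Tfap2a fell on leaving 2iL in all lines, by 2.84 ± 0.30 in WT, 1.70 ± 0.30 in KO2 and 2.37 ± 0.30 in KO3 (limma adjusted p = 6.94e-11, 1.08e-05 and 9.01e-09). In AloXR its levels ran from 0 to 1.75 CPM in WT, from 0 to 1.26 CPM in KO2 and from 0.49 to 2.83 CPM in KO3. Each depleted line overlapped WT at each time, and none of the 3 comparisons with WT was called (-0.00 ± 0.24, 0.16 ± 0.26 and -0.09 ± 0.26). At day 5 KO3 lay above KO2, and the share of all genes that did so was not counted.

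Gata3 (chr2:9857078-9890034, minus strand), a zinc-finger factor of the trophectoderm, was already higher in the naive depleted cells. In 2iL it stood at 1.14, 0.26 and 1.07 CPM in WT, 2.34, 1.42 and 2.51 CPM in KO2, and 7.56, 4.61 and 4.01 CPM in KO3. All 6 depleted libraries lay above the 3 WT libraries, as did those of 5.57% of all genes. The difference was 1.30 ± 0.31 (limma adjusted p = 0.00157) and was 1.43 without the libraries numbered 3 (limma adjusted p = 0.00377). It was called in KO3 (1.81 ± 0.36) and not in KO2 alone (0.78 ± 0.36). KO3 was called above KO2 in 2iL only without the libraries numbered 3 (1.29 ± 0.44, limma adjusted p = 0.046).

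During AloXR the WT level of Gata3 rose late. On day 1, 0.35, 0.56, 0 and 0.64 CPM were read in WT, 2.01, 2.07, 3.96 and 0.82 CPM in KO2 and 6.75, 5.25, 4.93 and 3.39 CPM in KO3. On day 3, 0, 1.31, 0.24 and 0.36 CPM were read in WT, 6.17, 8.33, 2.29 and 2.71 CPM in KO2 and 7.81 and 9.73 CPM in KO3. At both times each depleted library lay above each WT library, as for 4.68% and 8.42% of all genes. The differences were 1.64 ± 0.27 and 2.36 ± 0.29 (limma adjusted p = 9.1e-06 and 1.78e-08). By summed reads the day 3 level was 9.94 times that of WT in KO2 (95% exact interval 5 to 22.5) and 18.6 times in KO3 (9.31 to 42.2).

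Between days 3 and 5 Gata3 rose in WT by 1.61 ± 0.31 (limma adjusted p = 1.65e-04), the single call among the 6 tested genes for that step, where 9.96% of all genes rose. None of the 6 was called in WT from day 1 to day 3 (18.7% of all genes in either direction). At day 5 WT held 3.71, 3.96, 3.86 and 1.96 CPM and KO2 5.24, 3.79, 1.56 and 3.01 CPM, which overlapped fully, while KO3 held 8.45 and 7.25 CPM and stayed above both. Of all genes, 27.3% lay higher in KO3 than in WT without overlap at day 5, and the share with KO3 above KO2 was not counted. The difference of both lines from WT was 0.50 ± 0.29 (not called, limma adjusted p = 0.187), that of KO3 1.04 ± 0.38 (adjusted p = 0.0324). The depleted-minus-WT difference changed from day 3 to day 5 by -1.86 ± 0.41 (limma adjusted p = 0.00334), and in this case WT moved and neither depleted line was called between those days (-0.35 ± 0.31 and -0.14 ± 0.44). KO3 was called above KO2 at day 1 (0.98 ± 0.31) and day 5 (1.08 ± 0.38), with limma adjusted p = 0.0176 and 0.0419, where 8.19% and 9.02% of all genes were called. Both of those calls were lost when 1 library was left out (KO2 replicate 4 or KO3 replicate 1 at day 1, and either KO3 library or KO2 replicate 3 or 4 at day 5).

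**Figure D2:**
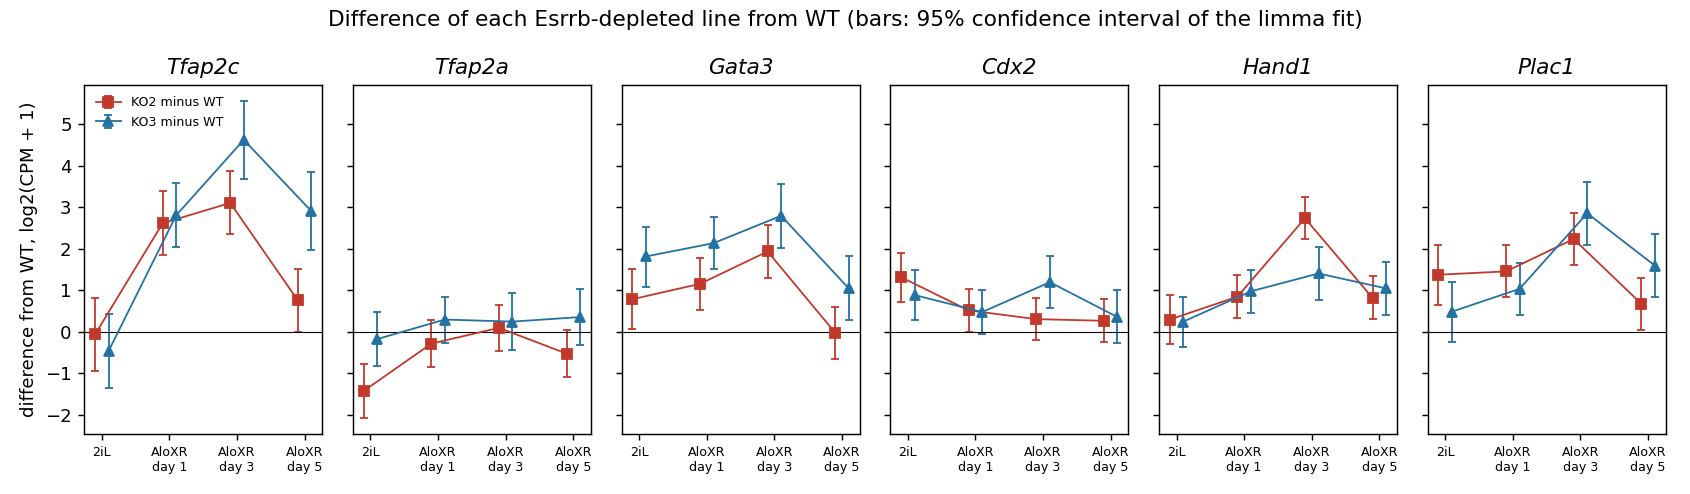
Difference of KO2 and of KO3 from WT at each time for the 6 tested genes, on the log2(CPM + 1) scale; points are limma estimates and bars their 95% intervals, and both lines share the WT libraries. Tfap2c, Gata3, Hand1 and Plac1 reach their largest difference in KO2 at day 3 (3.10, 1.93, 2.73 and 2.23) and are smaller at day 5, while Tfap2a stays near 0 after 2iL.

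Cdx2 and Elf5 are the factors most closely tied to trophoblast stem cells, and both sat at the edge of what this depth can see. Cdx2 (chr5:147300805-147307270, minus strand) had 98 reads over all 41 libraries, of which WT held 5 in 2 libraries. In 2iL its levels were 0, 0 and 0.86 CPM in WT, 1.17, 3.86 and 1.67 CPM in KO2, and 0.89, 1.40 and 1.57 CPM in KO3. The depleted libraries lay above WT without overlap, as for 5.57% of all genes, but only just. The lowest of them (0.89 CPM) and the highest WT library (0.86 CPM) almost met. The depleted-minus-WT difference was 1.10 ± 0.26 (limma adjusted p = 0.0012) and 1.39 without the libraries numbered 3. Tested on reads, Cdx2 in 2iL missed the threshold (edgeR adjusted p = 0.0608, DESeq2 adjusted p = 0.106). The summed reads (31 in KO2 and 20 in KO3 against 4 in WT) gave ratios of 7.61 (95% exact interval 2.69 to 29.7) and 4.24 (1.42 to 17).

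In AloXR, Cdx2 gave 1 read in the 12 WT libraries, at day 5. At day 1 KO2 held 9 reads and KO3 8, with levels of 0, 0.92, 1.16 and 0 CPM in KO2 and 1.09, 0, 0.21 and 0.45 CPM in KO3. Against the 3 reads that a WT count of 0 allows over the group, KO2 was at least 3.79-fold higher and KO3 at least 3.01-fold higher. The limma test did not call the difference (0.49 ± 0.22, adjusted p = 0.114), whereas the tests on reads did (edgeR adjusted p = 0.0258, DESeq2 adjusted p = 0.0218). At day 3 KO3 held 1.65 and 0.97 CPM and KO2 0.91, 0, 0.21 and 0 CPM. The day 3 call (0.75 ± 0.24, limma adjusted p = 0.0171) came from KO3 (1.19 ± 0.31) and not from KO2 (0.30 ± 0.26), and it was lost without KO3 replicate 1 (adjusted p = 0.0922 in limma). At day 5 both lines were at or below 0.47 CPM and no difference was called. From 2iL to day 1 Cdx2 fell in both depleted lines, by 1.09 ± 0.28 in KO2 and 0.71 ± 0.28 in KO3 (limma adjusted p = 0.00148 and 0.0345). The fall in KO3 was lost without any of 4 libraries (replicates 2 and 3 of either time), and neither fall was called by the tests on reads.

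Elf5 (chr2:103411688-103450989, plus strand), an ETS factor whose promoter is known to be methylated and silent in embryonic stem cells, had 11 reads in all. WT held none in 15 libraries and 71363883 reads, which allows up to 0.042 CPM over the line. The depleted lines held 7 reads in 5 KO2 libraries and 4 reads in 2 KO3 libraries, and no library passed 0.44 CPM. The gene did not pass the filter and no group exceeded 3 reads, so no fold is given. Exact two-sided permutation tests of the mean log2(CPM + 1) of depleted against WT libraries gave p = 0.833 in 2iL, 1 at day 1, 0.333 at day 3 and 1 at day 5. Since most libraries had no read, complete separation of the groups was not attainable for this gene, and these p-values are largely set by the zeros. No difference in Elf5 was resolved at any single time. All 11 reads lay in depleted libraries, and the reads summed over the 4 times were not tested.

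Hand1 (chr11:57828705-57832818, minus strand), the basic helix-loop-helix factor of giant cells, was close to absent in naive cells and in WT at every time. In 2iL WT held no read, and the depleted lines held 3 reads each, a difference not called with all libraries or without those numbered 3 (0.29). In AloXR WT held 0, 0, 0.21 and 0.43 CPM at day 1, 0, 0.22, 0 and 0.18 CPM at day 3 and no read at day 5. At day 1 KO2 held 1.76, 0.46, 1.86 and 0.55 CPM and KO3 0.87, 2.19, 0.64 and 1.58 CPM. The lowest depleted library (0.46 CPM) lay just above the highest WT library (0.43 CPM), a separation that 4.68% of all genes showed. The difference was 0.91 ± 0.22 (limma adjusted p = 0.00221). From 2iL to day 1 Hand1 rose in KO2 (0.75 ± 0.28, limma adjusted p = 0.0275) and KO3 (0.92 ± 0.28, adjusted p = 0.00598), as 12.6% and 16.9% of all genes did. The rise in KO2 was lost without replicate 1 or 3 of either time. Without the 2iL libraries numbered 3 it was 0.61 ± 0.32 in KO2 (not called) and 1.02 ± 0.32 in KO3.

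From day 1 to day 3 the rise of Hand1 was called in KO2 and not in KO3, and the difference between these 2 rises was not tested. At day 3 KO2 held 10.3, 10.9, 3.33 and 3.88 CPM and KO3 1.85 and 1.95 CPM. All KO2 libraries thus lay above KO3, and all depleted libraries above WT. Of all genes, 8.42% lay higher in the depleted libraries than in WT without overlap at that time. The share with KO2 above KO3 in this way was not counted. The step from day 1 to day 3 was 1.83 ± 0.26 in KO2 (limma adjusted p = 5.33e-07, 6.3% of all genes) and 0.37 ± 0.31 in KO3 (not called). The difference from WT was 2.73 ± 0.26 in KO2 and 1.40 ± 0.31 in KO3 (limma adjusted p = 2.38e-11 and 7.22e-04), and KO3 was lower than KO2 by 1.33 on this scale (-1.33 ± 0.31, limma adjusted p = 0.00402, 2.11% of all genes). Of the calls between the depleted lines, this was the single one in which KO2 was the higher. It was lost when KO2 libraries 1 and 2, or either KO3 library, were left out. The summed reads at day 3 were 124 in KO2, 17 in KO3 and 2 in WT, ratios of 65.2 (95% exact interval 17.7 to 545) and 18.2 (4.33 to 163).

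At day 5 Hand1 had returned to 0.91, 0.95, 0.67 and 0.53 CPM in KO2 and stood at 1.21 and 0.91 CPM in KO3. It still separated from WT, as 6.98% of all genes did in this direction. The step in KO2 from day 3 was -2.05 ± 0.26 (limma adjusted p = 4.67e-07, 2.1% of all genes fell), and the difference of both lines from WT was 0.92 ± 0.24 (limma adjusted p = 0.00247). Against 3 reads over the WT group, KO2 was at least 4.63-fold and KO3 at least 6.53-fold higher. Hand1 was the single one of the 7 genes whose depleted libraries all lay above WT at day 5.

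Plac1 (chrX:53069995-53240111, minus strand), the placental gene, was called higher in the depleted lines combined at each time, in both lines at days 1 and 3, in KO2 and not KO3 in 2iL, and in KO3 and not KO2 at day 5. In 2iL WT held no read in 3 libraries, KO2 held 0.88, 3.04 and 1.26 CPM and KO3 0.22, 0 and 1.22 CPM. KO2 lay above WT, as 14.5% of all genes did, and KO3 overlapped it. The difference was 0.92 ± 0.31 (limma adjusted p = 0.0252), called in KO2 (1.37 ± 0.36) and not in KO3 (0.48 ± 0.36). Leaving out any of 5 libraries ended the call (each WT library, KO2 replicate 2 and KO3 replicate 3), and without the libraries numbered 3 it was 0.80 (limma adjusted p = 0.112). It was also lost with no filter on low values (limma adjusted p = 0.0537) and with only the 2iL groups in the fit. Without the libraries numbered 3, KO3 was called below KO2 (-1.32 ± 0.43, limma adjusted p = 0.0345).

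In AloXR the separation was complete at days 1 and 3. At day 1 Plac1 stood at 0.53, 0.37, 0.41 and 0.85 CPM in WT, 1.76, 3.45, 4.89 and 3.27 CPM in KO2, and 2.61, 1.53, 1.5 and 3.16 CPM in KO3. At day 3 it stood at 0, 0.22, 0 and 0.36 CPM in WT, 9.36, 6.56, 2.08 and 2.33 CPM in KO2, and 8.43 and 6.08 CPM in KO3. No depleted library overlapped WT on either day, a separation that 4.68% and 8.42% of all genes showed. The differences were 1.24 ± 0.27 and 2.54 ± 0.29 (limma adjusted p = 5.06e-04 and 2.36e-09). Plac1 rose from day 1 to day 3 in KO3 (1.39 ± 0.38, limma adjusted p = 0.0134, 5.07% of all genes), a call lost without either KO3 day 3 library, and was not called in KO2 (0.35 ± 0.31). Its summed reads at day 3 gave ratios to the 3 WT reads of 31.2 in KO2 (95% exact interval 10.3 to 154) and 47.2 in KO3 (15.5 to 235).

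From day 3 to day 5 Plac1 fell in KO2. On day 5, 1 of 4 WT libraries had any read (0.45 CPM), while 0.68, 1.18, 0.22 and 1.06 CPM were read in KO2 and 3.62 and 1.36 CPM in KO3. KO2 overlapped WT and the 2 KO3 libraries did not. In this direction 27.3% of all genes separated KO3 from WT at day 5, and 10.8% separated KO2. The step in KO2 from day 3 was -1.61 ± 0.31 (limma adjusted p = 5.58e-04), a call that was lost without KO2 day 3 libraries 1 and 2. The step in KO3, -1.31 ± 0.44, was not called, nor was that of any other of the 6 genes in KO3 (1.09% of all genes in either direction). The difference from WT at day 5 was 1.13 ± 0.29 (limma adjusted p = 0.00217), called in KO3 (1.59 ± 0.38) and not in KO2 (0.67 ± 0.31).

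The course around day 3 was tested as a change of the depleted-minus-WT difference between neighbouring times. From day 1 to day 3 the change was called for Hand1 (1.16 ± 0.33) and Plac1 (1.30 ± 0.39), with limma adjusted p = 0.0277 and 0.0454, where 2.78% of all genes were called in this direction. It was not called for Tfap2c (1.15 ± 0.48, adjusted p = 0.199 in limma) or Gata3 (0.72 ± 0.40, adjusted p = 0.383 in limma). Both genes called here had passed the filter through the depleted lines alone, and with no filter neither was called (limma adjusted p = 0.0616 for Hand1 and 0.104 for Plac1). Neither was called by the tests on reads, and the call was lost for Plac1 in 15 of 22 and for Hand1 in 6 of 22 fits that left out 1 library.

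From day 3 to day 5 the difference shrank for Tfap2c (-2.04 ± 0.50), Gata3 (-1.86 ± 0.41), Hand1 (-1.15 ± 0.34) and Plac1 (-1.41 ± 0.41), with limma adjusted p = 0.00992, 0.00334, 0.0302 and 0.0261, where 4.44% of all genes were called. The call for Gata3 was kept in all 13 alternatives and all 20 fits that left out 1 library. That for Tfap2c was lost in edgeR (adjusted p = 0.0872) and kept in DESeq2 (adjusted p = 0.0072). The calls for Hand1 and Plac1 were lost in edgeR, in DESeq2, with no filter (limma adjusted p = 0.0652 and 0.0631) and with an offset of 0.5 CPM, and the Hand1 change had the other sign in edgeR (0.24). Without KO2 day 3 libraries 1 and 2, 3 of the 7 changes over all intervals were still called. Removing WT day 3 replicate 1 or 3 or KO3 day 3 replicate 1 also left 3 calls in all, and removing KO3 day 3 replicate 2 left 4.

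Within KO2 at day 3 the 4 libraries fell into 2 pairs for some of these genes. Libraries 1 and 2 held more of Tfap2c, Gata3, Hand1 and Plac1 than libraries 3 and 4, without overlap for any of the 4 genes. The share of all genes that divided the libraries so was not counted. Over the better-counted genes, disagreement (chi-square per gene) was 11.46 between libraries 1 and 2 and 7.31 between 3 and 4. It was lower between 1 and 3 (6.5) and between 2 and 4 (6.16), so the whole profile did not pair as these genes did. Placental products, a list of 35 genes that excludes the 7, summed to 1952 and 2285 CPM in libraries 1 and 2 and to 1155 and 1075 CPM in libraries 3 and 4. Pluripotency markers did not divide the libraries in this way (1049, 798, 938 and 761 CPM), whereas some other lists did. Primordial germ cell markers were narrowly higher in libraries 1 and 2 (164 and 160 CPM against 158 CPM in each of libraries 3 and 4). Fibroblast and feeder markers (112 and 130 CPM against 90.0 and 80.1 CPM) and primitive endoderm markers (607 and 600 CPM against 529 and 516 CPM) were higher in libraries 1 and 2. Primitive streak and mesoderm markers (15.5 and 15.9 CPM against 24.4 and 23.7 CPM) and neural crest markers (85.7 and 64.3 CPM against 111 and 98.7 CPM) were lower there, and their part in the division was not tested. Without libraries 1 and 2, a comparison made after the data were seen, the day 3 differences from WT were 3.43 for Tfap2c, 2.05 for Gata3, 1.74 for Hand1 and 2.17 for Plac1, and all were called. Without libraries 3 and 4 they were 4.29, 2.67, 2.40 and 2.91. The separation from WT was thus present with either pair of KO2 libraries.

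**Figure D3:**
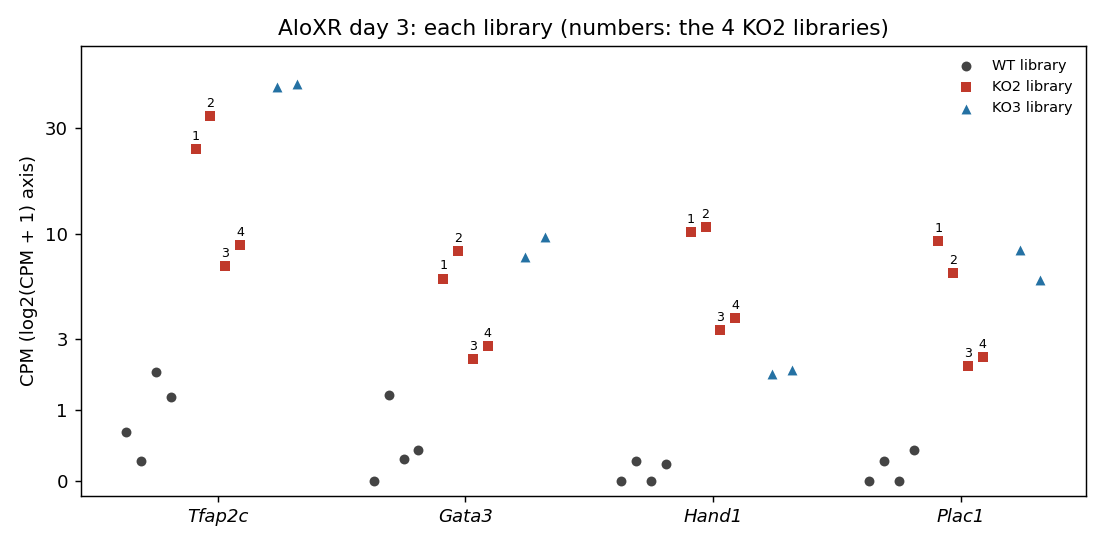
Levels at AloXR day 3 of the 4 genes that differed in both depleted lines, for each library in CPM on a log2(CPM + 1) axis; numbers mark the 4 KO2 libraries. Libraries 1 and 2 of KO2 lie above libraries 3 and 4 for each gene, every depleted library lies above the 4 WT libraries, and for Hand1 the 2 KO3 libraries lie below all KO2 libraries.

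Among the 7 genes, Hand1 and Plac1 had the most similar course over the 12 group means of log2(CPM + 1) (Pearson r = 0.83), followed by Tfap2c and Cdx2 (0.77) and Tfap2c and Tfap2a (0.72). Hand1 and Tfap2a ran opposite (-0.47). These values describe 12 points that share lines and libraries. Among 11975 genes that reached 5 CPM in some group on average, the closest course to Tfap2c was that of Efnb1 (r = 0.956), which encodes an ephrin, followed by Flvcr2, Zc3hav1, Plbd1 and Ctsd (0.954 to 0.941). The closest to Gata3 was Dab2 (0.947), an endocytic adaptor, followed by Cryab, Ano6, the Hippo target Ccn2 and Zdhhc7 (0.944 to 0.913). Plac1 was closest to Trak2, Serpinb9, Kitl, 3830417A13Rik and Lamtor1 (0.931 to 0.902), and Hand1 to Clint1, Appbp2, Scamp2, Tapbp and Gbp3 (0.893 to 0.861). Tfap2a was closest to Rab11fip5, Fgf10, Mpc2, Hoxd9 and Cog4 (0.978 to 0.973).

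Lists of related genes were read against all genes tested, of which 8.11%, 6.31%, 10.8% and 8.89% were called higher in 2iL and at days 1, 3 and 5, and 7.6%, 5.5%, 6.49% and 11.7% lower. The lists were chosen with earlier results of these data known, so their counts describe the listed genes and are no independent test. Other trophoblast regulators, a list of 25 further factors of which 22 were tested, were called higher in 2 cases in 2iL, 5 at day 1, 11 at day 3 and 6 at day 5, and lower in 1, 0, 0 and 1. The 2 of 22 in 2iL are near the share of all genes. Their median change was 0.08, 0.36, 0.80 and 0.21, where that of all genes was 0.04, 0.02, 0.03 and 0.00. At day 3 Klf5, a factor of trophectoderm and naive cells, averaged 18.1 CPM in WT, 69.9 CPM in KO2 and 148 CPM in KO3 (2.41 ± 0.14, limma adjusted p = 1.26e-17). Id2, an inhibitor of helix-loop-helix factors that marks the trophectoderm, averaged 29.4, 125 and 152 CPM (2.23 ± 0.22, limma adjusted p = 4.36e-10), and Gata2, a partner of Gata3 in trophoblast, 0, 2.26 and 6.21 CPM (2.23 ± 0.50, limma adjusted p = 9.71e-04). Fosl1, an AP-1 factor of giant cells, was higher at day 1 (1.32 ± 0.28) and day 5 (1.88 ± 0.30), and was also called higher at day 3. In 2iL the list moved otherwise: Nr6a1, an orphan receptor, was higher (1.36 ± 0.13) and Sox21 lower (-2.35 ± 0.33).

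Placental and trophoblast products were read as a second list, likewise chosen with earlier results of these data known. Of the 25 tested of its 35 genes, 7, 15, 21 and 12 were called higher in 2iL and at days 1, 3 and 5, and 4, 0, 0 and 2 lower, with median changes of 0.22, 0.84, 1.89 and 0.88. All genes were called higher in 8.11%, 6.31%, 10.8% and 8.89% of cases. In summed CPM the list ran at day 3 from 304 to 396 in WT, 1075 to 2285 in KO2 and 1958 to 1994 in KO3. At day 5 it ran from 1141 to 1419 in WT, 774 to 1220 in KO2 and 1568 to 1572 in KO3, so the KO2 sum was not higher than that of WT then. The sums in 2iL overlapped between WT (1133 to 1358), KO2 (1089 to 1631) and KO3 (1354 to 1901). At day 3 the imprinted H19 RNA averaged 9.08 CPM in WT, 439 CPM in KO2 and 450 CPM in KO3 (5.38 ± 0.42, limma adjusted p = 2.96e-11). The imprinted, retrotransposon-derived Peg10 averaged 7.15, 183 and 330 CPM (4.87 ± 0.25, limma adjusted p = 5.69e-16). Rhox6, an X-linked placental homeobox gene, averaged 0.197, 25 and 56.2 CPM (5.00 ± 0.45, limma adjusted p = 3.43e-10). Both H19 (5.44 ± 0.45) and Peg10 (4.11 ± 0.27) were higher already in 2iL, where Ly6a was lower (-3.82 ± 0.31). The prolactin-family genes Prl3d1, Prl3b1 and Prl8a9 and the syncytin gene Synb, products of differentiated placenta, had no read in any of the 41 libraries, whereas Tpbpa, a spongiotrophoblast product, was among those called higher at day 3. In all, 10 of the 35 genes stayed under 1 CPM throughout.

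The Hippo pathway, whose list shares Tead4 with the regulators and whose TEAD factors act upstream of Cdx2 and Gata3 in the embryo, was represented by 21 genes. Of these 2, 7, 8 and 1 were called higher and 2, 1, 1 and 6 lower in 2iL and at days 1, 3 and 5, with medians of 0.13, 0.35, 0.30 and -0.04. The higher calls in 2iL (2 of 21, where 8.11% of all genes were) and at day 5 (1 of 21, against 8.89%) were near or under the share of all genes. Without the 2iL libraries numbered 3 the list held 1 call in each direction in 2iL. At day 3 the secreted targets Ccn2 (12.2 CPM in WT, 90.3 CPM in KO2, 86.4 CPM in KO3) and Ccn1 (10.7, 48.9 and 93.9 CPM) rose by 2.87 ± 0.46 and 2.54 ± 0.46 relative to WT (limma adjusted p = 2.15e-05 and 9.48e-05). At day 5 Tead4, the TEAD factor of the trophectoderm, was the single gene of the list called higher (1.31 ± 0.25, limma adjusted p = 4.86e-05).

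Signals that act on trophoblast, 14 genes, went both ways, with 3, 3, 6 and 5 higher and 4, 3, 2 and 4 lower over the 4 times and medians of -0.07, 0.20, 0.42 and 0.37, against 8.11%, 6.31%, 10.8% and 8.89% higher and 7.6%, 5.5%, 6.49% and 11.7% lower among all genes. Bmp4, a ligand that promotes trophoblast differentiation, was lower at each time, by 2.90 ± 0.27 in 2iL, 1.33 ± 0.24 at day 1, 1.33 ± 0.25 at day 3 and 2.62 ± 0.25 at day 5 (limma adjusted p from 7.71e-05 to 1.23e-11). Fgf4, the factor that sustains trophoblast stem cells, was lower in 2iL (-1.60 ± 0.17) and at day 1 (-0.90 ± 0.15) and higher at day 3 (1.74 ± 0.16). It was also called higher at day 5. Its day 3 averages were 11.6 CPM in WT, 36.7 CPM in KO2 and 45.1 CPM in KO3.

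**Figure D4:**
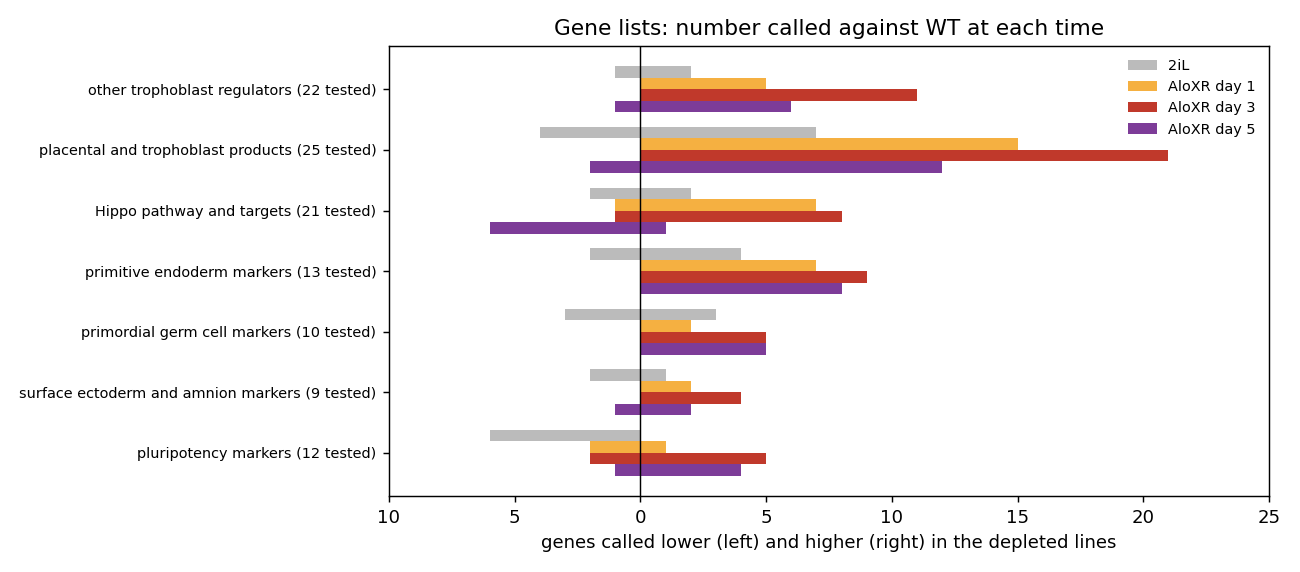
Number of genes of 7 lists called higher (right) and lower (left) in the depleted lines against WT at 2iL and AloXR days 1, 3 and 5; the number tested stands beside each list's name. Placental products number 7 called higher in 2iL, 21 at day 3 and 12 at day 5, and primitive endoderm markers hold 7, 9 and 8 calls at days 1, 3 and 5.

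Markers of other cell types that express some of these genes moved as well, and their part in the results above was not tested. Their counts, and those of the pluripotency markers, stand against the same shares of all genes called higher (8.11%, 6.31%, 10.8% and 8.89%) and lower (7.6%, 5.5%, 6.49% and 11.7%) at the 4 times. Primitive endoderm markers (13 of 14 tested) were higher in 4, 7, 9 and 8 cases and lower in 2, 0, 0 and 0, with medians of 0.10, 1.17, 1.31 and 1.46. They summed at day 3 to 328 to 406 CPM in WT, 516 to 607 CPM in KO2 and 998 to 1091 CPM in KO3. Among them Dab2 rose by 2.17 ± 0.36 at day 3 and Sox17 by 1.60 ± 0.23 at day 5 relative to WT (limma adjusted p = 1.65e-05 and 3.61e-07), and the day 5 mean of Sox17 was 8.12 CPM in KO3 against 0.156 CPM in KO2 and 0.0568 CPM in WT. None of the 14 was without a read.

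Primordial germ cell markers (10 of 11 tested), of interest because Tfap2c is also a germ cell factor, were higher in 3, 2, 5 and 5 cases and lower in 3, 0, 0 and 0, with medians of 0.35, 0.09, 0.78 and 0.36. At day 3 they summed to 59.1 to 67.2 CPM in WT, 158 to 164 CPM in KO2 and 174 to 189 CPM in KO3. Prdm1, a factor that acts with Tfap2c in germ cell specification, averaged 0.962, 4.76 and 7.30 CPM at that time (1.81 ± 0.19, limma adjusted p = 4.36e-10), and Nanos2 had no read in any library. Their part was likewise not tested.

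Surface ectoderm and amnion markers (9 of 11 tested), where Tfap2a and Gata3 are also found, were higher in 1, 2, 4 and 2 cases and lower in 2, 0, 0 and 1, with medians of 0.25, 0.14, 0.55 and 0.36. Their day 3 sums were 393 to 475 CPM in WT, 261 to 289 CPM in KO2 and 451 to 479 CPM in KO3, lowest in KO2, and Krt5 and Dlx5 stayed under 1 CPM in every library. At day 5 most of the sum was Epcam. Its means were 455 CPM in WT, 209 CPM in KO2 and 361 CPM in KO3, where the list averaged 483, 246 and 424 CPM. Primitive streak and mesoderm markers (9 of 13 tested), a group in which Hand1 appears later, gave 1, 3, 0 and 2 higher and 2, 0, 1 and 1 lower, with medians of 0.16, 0.37, 0.12 and 0.52. They were lower at day 3 in sum (31.3 to 34.9 CPM in WT, 15.5 to 24.4 CPM in KO2 and 26.1 to 28.2 CPM in KO3), and Msgn1 had no read and Mesp1 stayed under 1 CPM. Neural crest markers (6 of 8 tested) gave 1, 2, 3 and 3 higher and 0, 1, 1 and 1 lower, with medians of 0.18, 0.21, 0.77 and 0.39 and day 3 sums of 111 to 196 CPM in WT, 64.3 to 111 CPM in KO2 and 80.6 to 86.6 CPM in KO3. Fibroblast and feeder markers (10 of 13 tested) gave 3, 4, 5 and 1 higher and 0, 1, 1 and 1 lower, with medians of 0.27, 0.42, 0.67 and 0.26 and day 3 sums of 33.2 to 40.0 CPM in WT, 80.1 to 130 CPM in KO2 and 45.5 to 49.8 CPM in KO3.

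The pluripotency markers are a list of 12 genes, read from the same bulk RNA. Over the 4 times 0, 1, 5 and 4 were called higher and 6, 2, 2 and 1 lower, with a median change of -0.39, -0.29, -0.17 and 0.50. The list includes Esrrb, the targeted gene, which is counted among the 6 lower in 2iL and the 5 higher at day 3. The 6 lower calls in 2iL were also found without the libraries numbered 3, where 9.14% of all genes were called higher and 8.93% lower. In that fit the lists of regulators, products, signals and primitive endoderm markers held 3, 6, 3 and 3 higher and 2, 4, 4 and 2 lower calls in 2iL. Surface ectoderm and amnion markers went from 1 to 3 higher. In 2iL, Klf4, a naive factor, was lower (-2.68 ± 0.24, limma adjusted p = 6.44e-12), with 352 CPM in WT, 69.0 CPM in KO2 and 45.2 CPM in KO3. At day 3 they still summed to 1012 to 1148 CPM in WT, 761 to 1049 CPM in KO2 and 868 to 882 CPM in KO3. The 7 trophoblast genes together summed at that time to 0.812 to 3.08 CPM, 15.4 to 59.8 CPM and 65.4 to 65.8 CPM. At day 5 Nanog was lower in the depleted lines (89.6 CPM in WT, 40.8 CPM in KO2, 28.8 CPM in KO3, -1.36 ± 0.16, limma adjusted p = 6.61e-09) and Tdgf1 higher (2.08 ± 0.18, limma adjusted p = 3.64e-11).

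Levels were ordered by group mean. At day 3 the order was WT, KO2, KO3 for Tfap2c, Gata3 and Plac1, and WT, KO3, KO2 for Hand1. Of the neighbours in that order, KO3 and KO2 were not called apart for Gata3 (0.86 ± 0.38, 95% interval 0.09 to 1.63) or Plac1 (0.62 ± 0.38, -0.14 to 1.38). The median difference from WT of 100 neighbouring genes at day 3 was -0.16 around Tfap2c, -0.17 around Gata3, -0.16 around Tfap2a, 0.05 around Cdx2 and between -0.07 and 0.00 around Plac1 and Hand1.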

How the data were processed

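Libraries were made with the QuantSeq 3′ kit, in which each transcript yields a tag near its 3′ end. Values were not scaled by length, and levels are not compared between genes. Per the submitters' processing notes, STAR 2.7.6a, featureCounts 2.0.1 (Subread) and GRCm38 were used. The table the authors deposited holds CPM, the counts of a gene per 1000000 assigned reads, for 55487 genes, 55141 with a symbol. Each of its 41 columns sums to 1000000, all 41 were used, with symbols and positions taken from GENCODE M21 for GRCm38. Whether counting used strand is not given in the sources used here, so reads of overlapping antisense genes cannot be told apart, and reads of the related Rhox6 and Rhox9 are uncertain. Read counts were recovered from the smallest step in each column of the deposited CPM, and 100% of 766190 values above 0 were whole within 0.01 reads (3424064 to 5736053 reads a library). No pair of replicates agreed within counting noise.

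Groups follow the genotype and treatment labels. log2(CPM + 1) was compared with limma 3.58.1 in R 4.3.3, fitting the 12 group means to all 41 libraries together (29 degrees of freedom), for the 16967 genes that reached 1 CPM in 3 libraries or more. P-values were adjusted by Benjamini-Hochberg over all genes tested, and a change of 1.5-fold is 0.58 on the log2 scale. The rule that both depleted lines move the same way was used for the average of the lines against WT. It was not used for changes of that difference between times. Read tests used edgeR 4.0.16 and DESeq2 1.42.0 on the recovered reads. Ratios of summed reads carry exact binomial intervals, and a bound uses 3 reads over the group. The fit was tested on simulated data, and single values were compared by exact permutation in SciPy 1.17.1.

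The 7 genes and the lists were chosen with earlier results of these data known. Genes named from a list are the up to 3 called genes with the largest change at a time and a group mean of at least 5 CPM, of which a part is printed. Genes of similar course are the 5 with the highest Pearson r for each of the 7 that reached such a mean. Tpbpa and genes named for having no read, or for staying under 1 CPM, were chosen after their values were seen. Alternatives were other offsets, filters and scalings, the read tests, only the groups compared, leaving out libraries, each depleted line alone, and centring on neighbouring genes.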

Additional observations from a re-analysis of the deposited data

Results flagged for a closer look

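The change of the depleted-minus-WT difference between neighbouring times was called for 4 genes. From 2iL to day 1 it was 2.98 for Tfap2c. From day 1 to day 3 it was 1.16 for Hand1 and 1.30 for Plac1, and from day 3 to day 5 it was -2.04 for Tfap2c, -1.86 for Gata3, -1.15 for Hand1 and -1.41 for Plac1, all on the log2(CPM + 1) scale.

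The lines KO3 and KO2 differed from each other, KO3 minus KO2, by 1.25 for Tfap2a in 2iL, 0.98 for Gata3 at day 1, 1.51 for Tfap2c and -1.33 for Hand1 at day 3, and 2.16 for Tfap2c and 1.08 for Gata3 at day 5. At these times 2.5%, 8.19%, 5.58% and 9.02% of all genes were called higher in KO3, and 2.11% lower at day 3.

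A library far from the other 3 of its group was found in 6 of 42 combinations of a gene and a group of 4 libraries with a read. For continuous values chance gives about 1 in 20, a rate that does not hold for groups with many zeros. It was the highest library for Tfap2a in KO2 at day 5 (0.95 CPM), Cdx2 in WT at day 5 (0.22 CPM), Elf5 in KO2 at day 5 (0.18 CPM) and in KO3 at day 1 (0.44 CPM), and Plac1 in WT at day 5 (0.45 CPM). For Gata3 in WT at day 5 it was the lowest library (1.96 CPM). For Cdx2, Elf5 and Plac1, 4 of the 6 cases, the other 3 libraries of the group had no read, so that any read sets a library apart.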

How the results depend on the processing

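No paired analysis was possible because the labels give no replicate numbers, and the numbers used here follow accession order. Of the 6 tested genes, 4 were called against WT in 2iL, 4 at day 1, 5 at day 3 and 3 at day 5. With an offset of 5 CPM these counts were 0, 2, 4 and 1, and all genes called fell to 1396, 848, 1338 and 1731 from 2666, 2005, 2931 and 3491. In 2iL the count was 2 with no filter, without the libraries numbered 3 and for KO3 alone, 1 with only the groups compared in the fit (1385 of all genes), and 2 to 4 when 1 library was left out. At day 3 it was 3 with a filter of 5 CPM, under which fewer of the genes are tested, and at day 5 it was 1 for KO2 alone. The 7 changes of the difference between times became 4 with an offset of 0.5 CPM, 3 with no filter, 2 with edgeR, 3 with DESeq2, 3 without KO2 day 3 libraries 1 and 2 (chosen after seeing the data), and 3 to 7 when 1 library was left out. The 6 calls between KO3 and KO2 became 3 with edgeR and 2 with only the groups compared. The one reversal was the Hand1 change from day 3 to day 5, -1.15 in limma and 0.24 in edgeR (adjusted p = 0.692). Where no value above shows it, the cause was not tested. Quantile normalization moved the share of higher genes among all called at day 3 from 62.4% to 50.7%.

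Tfap2c and Gata3 at days 1 and 3, and Hand1 and Plac1 at day 3, kept their call against WT in every alternative that tested them. They also kept it with any 1 library left out. Hand1 was not tested under the filter of 5 CPM. Exact two-sided permutation over libraries gave p = 0.167 for Tfap2a and 0.0952 for Plac1 in 2iL, although limma called both. The same permutation gave p = 0.143 for Cdx2 at day 3 and 0.0667 for Tfap2c at day 5, likewise called in limma. For the other calls of both lines against WT, permutation gave p below 0.05. With 3 reads standing for 0.523 to 0.876 CPM, differences in Elf5, and in Cdx2 after 2iL, are at the limit of the depth.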
